A study of Mus musculus with 7 samples.

Results

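Resting bone marrow-derived macrophages, grown with the growth factor M-CSF and given no lipopolysaccharide (LPS), made up 3 of the 7 RNA sequencing libraries of the series. They were chosen by their treatment label alone: WT M0 replicate 1 and WT M0 replicate 2 from wild-type mice, and KO M0, a single library from mice lacking Tgm2. The bone marrow came from male mice of 6 to 8 weeks, and every culture, the LPS-treated ones included, had M-CSF at 25 ng/ml for 7 days. The other 4 libraries had LPS at 10 ng/ml for 6 hours more, with 2 wild-type (WT LPS) and 2 knockout (KO LPS) libraries. Values are TPM, which are transcript levels scaled by transcript length and to a common total in each library. The labels name neither the knockout allele nor a strain. They do not say whether replicates are different animals or cultures, and p-values below therefore reflect only how these samples vary, which can be technical.

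M-CSF acts through the receptor Csf1r, a tyrosine kinase that keeps macrophages and their precursors alive and drives their growth. Under it, marrow precursors mature into adherent phagocytes with many lysosomes, complement and scavenger receptors, and the lineage factors PU.1 (Spi1) and C/EBP. Such cells are called M0 because neither a microbial product nor a polarizing cytokine has been added, and they are the usual starting point of LPS and interleukin 4 experiments.

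Tgm2, the transglutaminase gene on chromosome 2 from 158116405 to 158146392 (GRCm38), stood at 433, 368 and 50.7 TPM in WT M0 replicate 1, WT M0 replicate 2 and KO M0, and at 19.2 to 233 TPM in the LPS libraries. Its transcript was lower in the knockout library than in both wild-type ones, so the labels passed this check, though a value per gene leaves unknown which exons the remaining reads cover. Both WT LPS libraries held Xist, the RNA of X inactivation, at 47.2 and 55.4 TPM against at most 0.00535 TPM in any untreated library, which goes against their male label. They held Y-linked transcripts too: Ddx3y, Eif2s3y and Kdm5d were higher in WT M0 than in WT LPS by log2 differences of 0.85, 0.92 and 1.37. The sex-linked list, Xist included, summed to 107 and 127 TPM in WT LPS and to 117 to 161 TPM in untreated libraries. Whether the WT LPS libraries mix sexes was not tested. Each comparison with LPS is therefore also given "without WT LPS". With both of those libraries left out the wild type has no LPS group, so that value is KO M0 minus the mean of the 2 KO LPS libraries, and the WT M0 libraries enter only the estimate of the spread. Its resting side is thus 1 knockout library, whose spread is taken from the other groups. In the same way a value "without KO M0" is WT M0 minus WT LPS, with no knockout library in the contrast. All 20 macrophage markers reached 1 TPM in each untreated library, with summed levels of 71880 to 80180 TPM. Lists of other cells summed to less, but several had members above 1 TPM in all 3 libraries: 9 of 16 stromal, osteoblast and endothelial markers, 6 of 10 osteoclast, 3 of 8 megakaryocyte and platelet, 3 of 11 neutrophil, 2 of 14 monocyte and progenitor, 1 of 10 dendritic cell, 1 of 9 B and plasma cell, 1 of 12 T and NK cell, and 0 of 9 mast cell, basophil and eosinophil and 0 of 11 erythroid markers. The megakaryocyte and platelet list summed to 508 to 596 TPM, led by Pf4, and the dendritic cell list to 360.1 to 462 TPM, led by Bst2. The neutrophil list summed to 116 to 127 TPM, led by Csf3r, with S100a9 listed at 0 in all 3. The T and NK cell list summed to 12.6 to 15.9 TPM, led by Cd4, with Cd3g listed at 0. In bulk RNA, fewer cells of a type and less RNA per cell cannot be told apart. Marker genes given by value here and below were chosen after their values were seen.

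Resting macrophages spent a large part of their RNA on a few secreted, iron-storing and lysosomal proteins. In all 3 libraries 10740 genes reached 1 TPM, 7369 reached 10, 1397 reached 100, 124 reached 1000 and 4 reached 10000, while 7876 of the 23337 listed genes stood at 0 in each. The 4 highest genes held 11.5% to 11.9% of total TPM, the 10 highest of each library 16.1% to 16.2%, and the 1000 highest 68.9% to 70.9%. Protein-coding genes held 98.4% to 98.7%.

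Lyz2, the macrophage lysozyme that cuts bacterial cell walls, was the most abundant gene at 42150, 36270 and 38580 TPM, in the order WT M0 replicate 1, WT M0 replicate 2 and KO M0, which is the order of all triplets that follow. Fth1, the heavy chain of the iron store ferritin, stood at 25800, 35690 and 37030 TPM, and its light chain Ftl1 at 20150, 19600 and 19710 TPM. Apoe, the apolipoprotein that carries lipid out of cells, stood at 30830, 23530 and 20160 TPM. These genes held the first 4 ranks in each library, but Apoe ranked above Fth1 in WT M0 replicate 1 and below it in the others. WT M0 replicate 1 was lowest for Fth1 and highest for Apoe, while Ftl1 differed little among the 3.

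Below them came proteins of the lysosome and of the cell skeleton. Psap, the precursor of the saposins that help break down sphingolipids, stood at 8602, 9109 and 8919 TPM, and Tmsb4x, thymosin beta 4, which binds free actin, at 7462, 8325 and 8790 TPM. Eef1a1, the factor that brings transfer RNA to the ribosome, stood at 6442, 7902 and 8112 TPM, and Tpt1, a translationally controlled protein, at 5378, 5112 and 5348 TPM. Selenop (listed as Sepp1), a secreted selenium carrier, stood at 4198, 6182 and 5901 TPM, with WT M0 replicate 1 the lowest. Pltp, which moves phospholipid between lipoproteins, stood at 3432, 4454 and 4262 TPM. Lgals3, the galectin often used as a macrophage marker, stood at 4665, 3713 and 3839 TPM, and the intermediate filament Vim at 3219, 3972 and 3961 TPM. Among the 25 highest genes the widest spread between libraries was that of Apoe, whose highest value was 1.53 times its lowest. WT M0 replicate 1 was the lowest library for 14 of the 25 and the highest for 9.

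**Figure D1:**
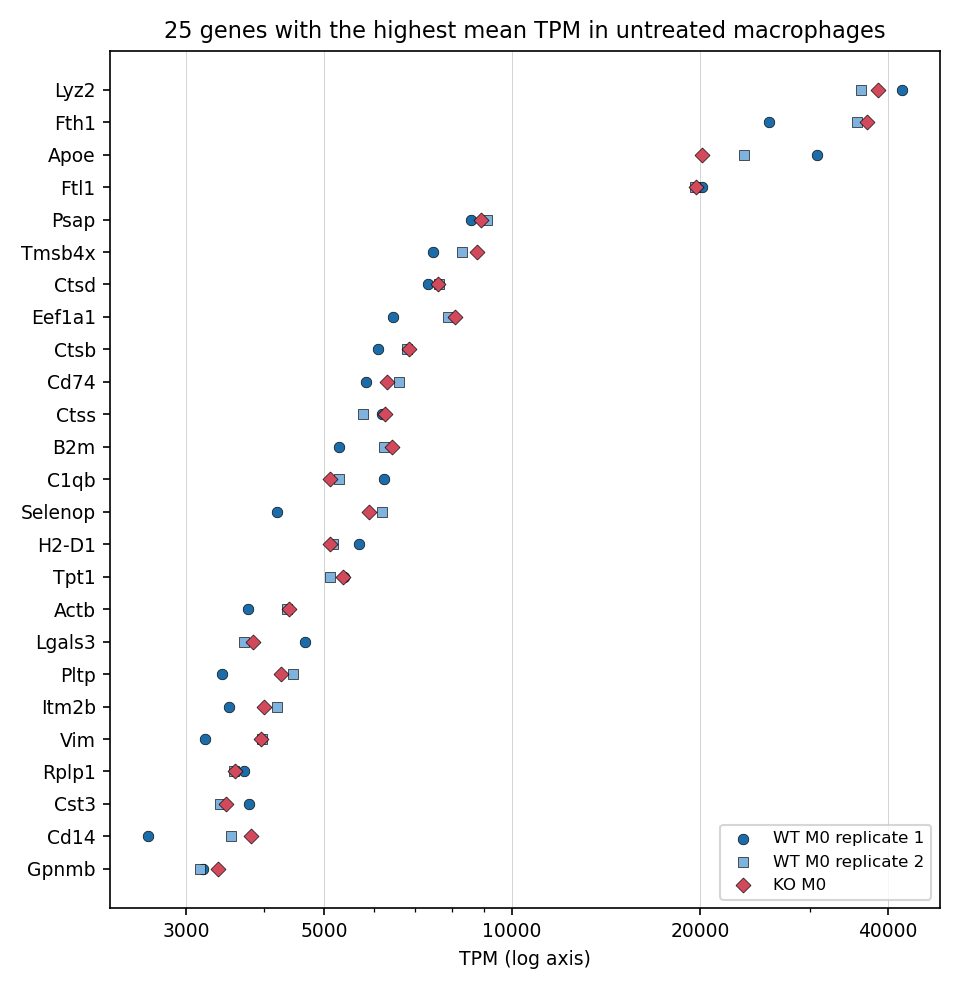
TPM on a log axis of the 25 genes with the highest mean over the untreated libraries, 1 point per library (circle: WT M0 replicate 1, square: WT M0 replicate 2, diamond: KO M0). Lyz2, Fth1, Apoe and Ftl1 lie at 19600 TPM or above in every library and the other 21 genes lie below 10000.

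To see which of these levels are a feature of the resting state, untreated libraries were compared with the LPS libraries in a single limma fit of log2(TPM + 1) over 11096 genes, as the mean of WT M0 and KO M0 minus the mean of WT LPS and KO LPS. A positive log2 difference is thus higher in resting cells. The fit called 4176 genes higher (37.6%) and 2072 lower (18.7%) in resting cells at an adjusted p under 0.05, and 56.3% in all. The split depends on the scaling: the median gene differed by 0.23, median-ratio scaling moved that median to 0.02, and it called 2868 genes higher and 3007 lower. Centring by transcript length and GC content, chosen after seeing the data, gave 3128 and 2989, and without WT LPS there were 2640 and 1485. Counts of list members below are read against these shares, and a fold change of a gene near 1 TPM is understated by the added 1.

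Among the 25 most abundant genes 18 were higher and 4 lower in resting cells, or 16 and 1 without WT LPS. Apoe was higher by a log2 difference of 2.26 (SE 0.16, limma adjusted p 1.09e-06; 2.50 without WT LPS), Pltp by 2.39 (SE 0.15, limma adjusted p 4.16e-07; 2.99 without WT LPS) and Selenop by 2.74 (SE 0.15, limma adjusted p 1.89e-07; 2.74 without WT LPS). Lgals3 differed by 1.99 (SE 0.16; 2.15 without WT LPS) and Vim by 1.32 (SE 0.14; 1.43 without WT LPS), and both passed the test in all alternatives run. Lyz2 did not pass it, at 0.35 (SE 0.15, limma adjusted p 0.0648; 0.31 without WT LPS). Cd14, the co-receptor for LPS, stood at 2610, 3541 and 3811 TPM and did not pass either, at -0.25 (SE 0.14, limma adjusted p 0.165; 0.11 without WT LPS). It did pass as lower in resting cells without KO M0, at -0.60 (limma adjusted p 0.022). The same held with centring by length and GC content, at -0.62 (limma adjusted p 0.0189). The leading gene of resting macrophages thus had a level that the test did not separate from that in LPS libraries, while the lipid carriers next to it differed.

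The largest differences lay in less abundant genes. Zdhhc14, a palmitoyltransferase, stood at 120.2, 139 and 125 TPM in resting cells and at 0.705 to 1.87 TPM with LPS, a log2 difference of 5.92 (SE 0.16, limma adjusted p 1.97e-09; 6.13 without WT LPS). St6gal1, which caps glycans with sialic acid, differed by 5.86 (SE 0.17; 5.82 without WT LPS), Eps8, an actin capping protein, by 5.31 (SE 0.19; 5.28 without WT LPS), and Hpgd, which breaks down prostaglandins, by 5.31 (SE 0.16; 5.17 without WT LPS). The lectin Clec10a stood at 138, 162 and 131 TPM and differed by 4.97 (SE 0.17; 4.70 without WT LPS). Lmna, which codes for the nuclear lamins A and C, was the most abundant of the 10 largest at 1393, 1289 and 1171 TPM, against 38.4 to 56.0 TPM with LPS, a log2 difference of 4.68 (SE 0.12, limma adjusted p 1.55e-09; 4.36 without WT LPS). The others of the 10 were Arhgap18, Dusp5, Pcp4l1 and Mtss1, with log2 differences of 4.77, 4.73, 4.47 and 4.47. The 10 were named only where no LPS library overlapped the resting ones, so that lack of overlap is not a result. Without WT LPS, which has 1 resting library, Arhgap18, Dusp5, Pcp4l1 and Mtss1 differed by 4.71, 4.83, 4.05 and 5.16.

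At the other end were genes of the acute response, most of them low in resting cells. Lcn2, which binds bacterial iron carriers, stood at 1.79, 1.33 and 1.17 TPM, with a log2 difference of -8.75 (SE 0.14, limma adjusted p 1.22e-10; -9.64 without WT LPS). Nos2, the inducible nitric oxide synthase, stood at 0.317, 0.270 and 0.613 TPM and differed by -8.33 (SE 0.18; -8.97 without WT LPS). The cytokine Il6 stood at 0.793, 0.625 and 0.780 TPM and differed by -7.21 (SE 0.21; -8.55 without WT LPS), and Il1a stood at 6.16, 6.24 and 6.85 TPM and differed by -6.32 (SE 0.14; -6.57 without WT LPS). Serpinb2 (-7.42), the complement factor Cfb (-6.71), haptoglobin Hp (-6.28), Ly6c2 (-6.76), the noncoding RNA U90926 (-8.33) and Saa3 completed the 10 lowest, and all 10 also passed in the contrast without WT LPS. Saa3, an acute-phase serum amyloid, was not low: it stood at 362, 116 and 149 TPM in resting cells and at 21500 to 35160 TPM with LPS, a log2 difference of -7.30 (SE 0.31; -7.84 without WT LPS). Resting libraries held at least some transcript of most of these, as with Hp at 17.1, 12.7 and 14.8 TPM and Cfb at 9.45, 7.64 and 9.83 TPM.

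Lysosomal genes were the most prominent class after the ribosome, secreted defence proteins and ferritin. Cathepsins and lysosomal hydrolases held 4.45%, 4.66% and 4.66% of total TPM, against 2.51% to 2.73% in the LPS libraries. Ctsd, an aspartyl protease of the lysosome, stood at 7327, 7633 and 7612 TPM, and the cysteine proteases Ctsb and Ctss at 6087, 6784 and 6840 and at 6180, 5777 and 6261 TPM. Legumain (Lgmn), which activates cathepsins, stood at 2106, 2328 and 2162 TPM. Of 53 tested members of the cathepsin and hydrolase list 37 were higher in resting cells and 6 lower, with a median log2 difference of 0.72, and 31 and 4 without WT LPS, with the same median. Median-ratio scaling gave 33 and 9. Psap differed by 1.38 (SE 0.13; 1.42 without WT LPS), Ctsb by 1.23 (SE 0.12; 1.25 without WT LPS) and Lgmn by 1.67 (SE 0.12; 1.82 without WT LPS). Ctsd differed by 1.13 (SE 0.12; 1.02 without WT LPS), or by 0.72 after centring by length and GC content.

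Proteins of the lysosomal membrane and its proton pump held 1.47%, 1.56% and 1.57%. Lamp1, the main glycoprotein of that membrane, stood at 2212, 2500 and 2488 TPM, the tetraspanin Cd63 at 1840, 1744 and 1724 TPM, and Atp6v0c, the proteolipid ring of the pump, at 1462, 1385 and 1379 TPM. Of its 31 tested members 13 were higher in resting cells and 4 lower, with a median of 0.26, close to that of all genes. With median-ratio scaling 7 were higher and 6 lower, and without WT LPS 8 and 3.

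The promoters of these genes are shown because many carry the same word, CACGTGA, which holds the E-box core of the MiT/TFE factors, the family of Tfeb and Tfe3 that is known for control of lysosomal genes. Windows ran from 250 bases before to 50 after each start that RefSeq lists for a gene on GRCm38.p6, some of them inside the gene, a gene counted once if any of its windows held the word, and both strands were searched (TCACGTG on the other strand). The word was found in 12 of 44 cathepsin and hydrolase genes with a window (27.3%) and in 7 of 25 membrane and pump genes (28.0%), against 1160 of all 27025 genes with a window (4.29%). It was picked after several words had been tried over several lists, so these shares are a description only. Shares of other words are likewise a description only. The ETS word AGGAAGT was in 11.4% and 8.0% of the same lists against 10.7% of all genes. The AP-1 word TGACTCA was in 6.82% and 8.0% against 5.95%, and TTTCCGG in 6.82% and 8.0% against 4.03%. Each 8.0% was 2 of 25 genes. Tfe3 itself stood at 166, 174 and 166 TPM. The 250 bases before the start of Ctsd and Lamp1, both abundant, follow, 5′ to 3′ on the gene's strand, with each match in capitals. They lie at chr7:142387828-142388077 (minus strand) for Ctsd and chr8:13158911-13159160 (plus strand) for Lamp1.
Ctsd: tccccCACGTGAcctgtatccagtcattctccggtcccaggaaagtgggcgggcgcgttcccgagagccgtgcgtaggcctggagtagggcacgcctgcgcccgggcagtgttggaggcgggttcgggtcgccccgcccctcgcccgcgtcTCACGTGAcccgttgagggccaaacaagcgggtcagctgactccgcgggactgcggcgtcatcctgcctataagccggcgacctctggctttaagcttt
Lamp1: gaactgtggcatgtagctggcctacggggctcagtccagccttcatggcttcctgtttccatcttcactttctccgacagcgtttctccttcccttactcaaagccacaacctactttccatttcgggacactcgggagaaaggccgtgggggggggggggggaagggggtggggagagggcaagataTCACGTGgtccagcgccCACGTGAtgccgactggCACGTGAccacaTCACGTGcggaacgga
Ctsd held 3 matches, of which overlapping matches on both strands share letters, and Lamp1 held 4. A match is not a measured binding site.

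Antimicrobial and complement proteins, led by Lyz2, held 6.5%, 5.46% and 5.64% of total TPM. The chains of C1q, which opens the classical complement path, stood at 6238, 5277 and 5114 TPM for C1qb, 3762, 2796 and 2635 TPM for C1qc and 2216, 1701 and 1503 TPM for C1qa. All 3 were highest in WT M0 replicate 1, and all 3 were higher in resting cells, by 1.88 (SE 0.13; 1.88 without WT LPS), 2.06 (SE 0.14; 1.90 without WT LPS) and 2.65 (SE 0.20; 2.67 without WT LPS). The pore-forming Mpeg1 stood at 2013, 2312 and 2343 TPM. Of 27 tested members 12 were higher and 13 lower in resting cells, and 7 and 12 without WT LPS.

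Lipid-handling genes (uptake, storage and efflux) held 4.0%, 3.37% and 3.02% in resting cells and 0.83% to 1.45% with LPS. Most of that was Apoe and Pltp. The lipid droplet coat Plin2 stood at 988, 1062 and 1080 TPM, the fatty acid carrier Fabp5 at 1178, 716 and 738 TPM, the lysosomal lipase Lipa at 649.6, 762 and 752 TPM and lipoprotein lipase Lpl at 632, 676 and 724 TPM. Of 29 tested members 21 were higher in resting cells and 4 lower, with a median of 1.06, and 22 and 4 with a median of 1.26 without WT LPS. Fabp5 differed by 1.45 (SE 0.17; 1.41 without WT LPS) and Lipa by 0.95 (SE 0.12; 1.26 without WT LPS).

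The iron list, led by ferritin, held 4.99%, 5.92% and 6.05% in resting libraries. It held 8.39% and 8.87% in WT LPS, above every resting library, and 6.41% and 5.83% in KO LPS, which overlapped the resting range. Fth1 was lower in resting cells, at -0.75 (SE 0.16; -0.35 without WT LPS), or at -1.15 without KO M0. Ftl1 was higher, by 0.77 (SE 0.16; 1.02 without WT LPS), or by 0.13 after centring by length and GC content. Whether the genotypes differ in this contrast was not tested. Hmox1, which frees iron from haem, stood at 1358, 1179 and 1095 TPM. Antigen presentation genes held 2.81%, 2.82% and 2.77%. Cd74, the invariant chain of class II, stood at 5839, 6593 and 6299 TPM, with a log2 difference of 1.05 (SE 0.12; 1.64 without WT LPS), or of 0.46 without KO M0. The class II chains H2-Aa and H2-Ab1 stood at 1858, 1814 and 1710 and at 2038, 1633 and 1471 TPM, and class I H2-K1 and H2-D1 at 2805, 2431 and 2345 and at 5687, 5164 and 5099 TPM. B2m, the light chain of class I, stood at 5287, 6238 and 6408 TPM. As a list the antigen presentation genes were lower in resting cells in 21 of 33 cases and higher in 10, with 17 and 7 without WT LPS, so the abundant class II genes went against the count.

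Cytosolic ribosomal proteins were the largest class, with 10.8%, 8.97% and 9.4% in resting libraries and 6.06% to 6.26% with LPS. Rplp1 stood at 3712, 3584 and 3593 TPM, Rpl10 at 3011, 3017 and 3082 TPM and Rps9 at 2510, 2210 and 2167 TPM. Of 79 tested members 64 were higher in resting cells and 0 lower, with a median of 0.63. The count of higher members was 27 with median-ratio scaling, 28 with centring by length and GC content and 54 without KO M0. The median was 0.58 without WT LPS. Nuclear genes of oxidative phosphorylation held 1.43%, 1.08% and 1.1%. Of 74 tested, 32 were higher and 2 lower, but 15 were higher with median-ratio scaling and 14 with centring. Without KO M0, which is WT M0 against WT LPS, 42 were higher and 0 lower. The median log2 difference was 0.38 in the main fit, 0.56 without KO M0 and 0.16 without WT LPS. A genotype difference in this contrast was not tested. In both lists WT M0 replicate 1 was above both other resting libraries for most members, 54 of 79 and 56 of 74, and the median transcript was 1059 bases in the first list and 1094 in the second.

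Enzymes of glycolysis held 0.743%, 0.754% and 0.778%. Gapdh stood at 1551, 1579 and 1734 TPM, Aldoa at 1381, 1356 and 1361 TPM, and Ldha, which turns pyruvate to lactate, at 559, 589.9 and 625 TPM. Of 22 tested members 12 were lower in resting cells and 4 higher (10 and 3 without WT LPS, 17 and 2 with median-ratio scaling), among them Pgk1 at -0.98 (SE 0.12; -0.76 without WT LPS). Actin and its regulators held 3.99%, 4.13% and 4.15%, led after thymosin by Actb at 3780, 4365 and 4391 TPM and Actg1 at 2395, 2716 and 2691 TPM. Among matrix genes and proteases, which held 1.82%, 1.61% and 1.62%, the membrane protease Adam8 stood at 1321, 1304 and 1245 TPM and osteopontin Spp1 at 1579, 1146 and 1063 TPM. Adam8 was higher in resting cells by 2.02 (SE 0.12; 2.34 without WT LPS) and the protease inhibitor Serpinb6a by 2.09 (SE 0.11; 2.22 without WT LPS).

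**Figure D2:**
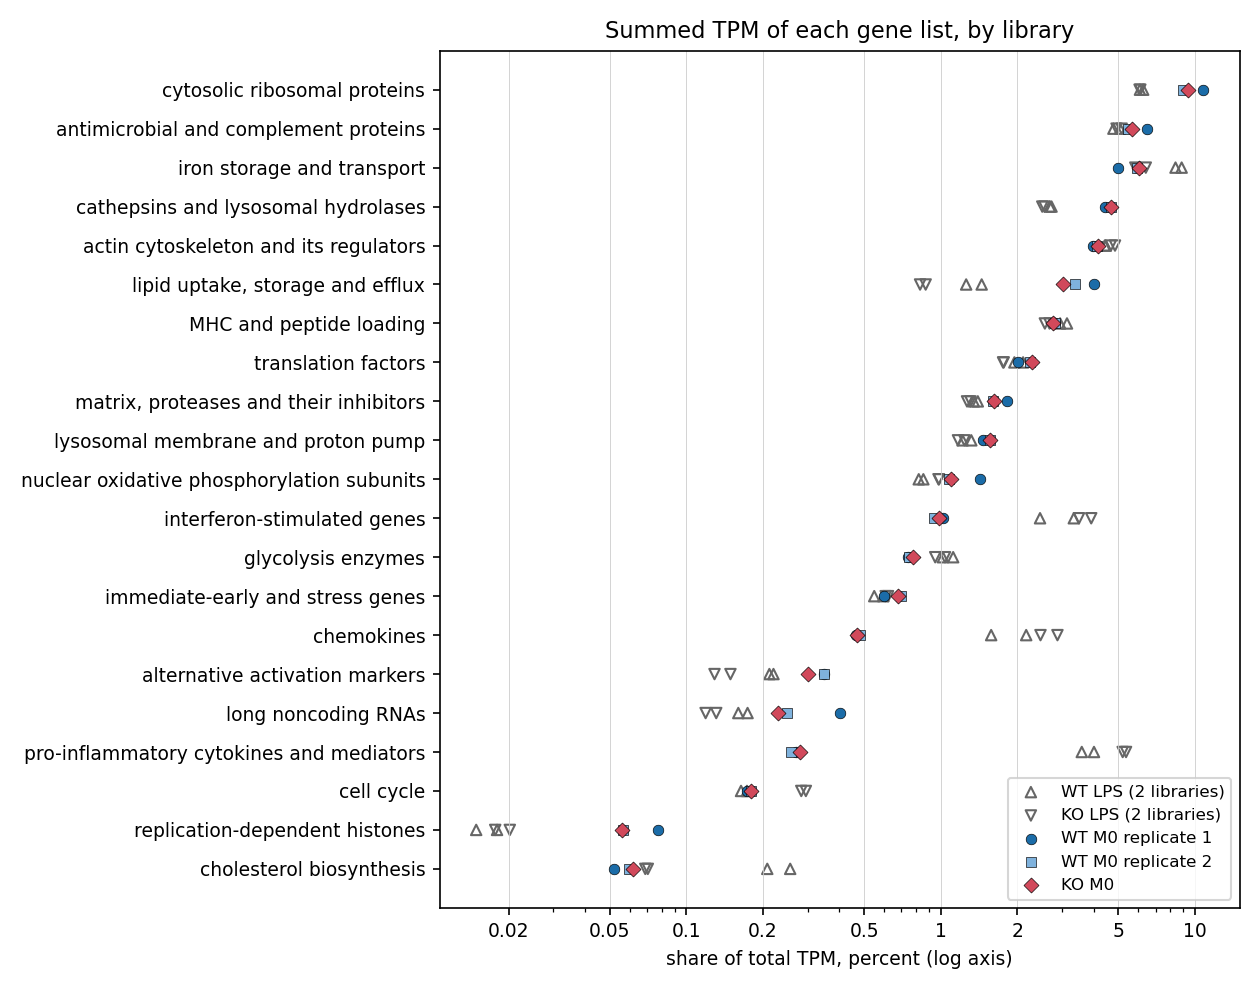
Share of total TPM, in percent on a log axis, of each gene class list in every library (filled points: untreated libraries, open triangles: LPS libraries). Resting libraries hold 3.02% to 4.0% in lipid-handling genes against 0.83% to 1.45% with LPS, and 0.259% to 0.279% in pro-inflammatory genes against 3.59% to 5.36%.

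Resting macrophages nonetheless carried inflammatory transcripts. The pro-inflammatory list held 0.269%, 0.259% and 0.279% of total TPM. Acod1 (listed as Irg1), which makes itaconate, stood at 729, 658 and 802 TPM, the inflammasome sensor Nlrp3 at 295, 339 and 340 TPM and Il1b at 223, 292 and 307 TPM. Il1b differed by -3.82 (SE 0.14, limma adjusted p 1.43e-08; -3.76 without WT LPS) and Acod1 by -2.91 (SE 0.12, limma adjusted p 2.98e-08; -2.89 without WT LPS). Of 26 tested members 21 were lower in resting cells and 1 higher, with a median of -3.87, and 22 and 0 without WT LPS. Some hallmarks of activation were under 1 TPM in all 3 resting libraries, as with Il6, Nos2 and Il12b, the last at 0.0491, 0.0580 and 0.146 TPM. Ifng and Csf2 were listed at 0 in each.

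Chemokines held 0.463%, 0.483% and 0.467%. Ccl9 and Ccl6, chemokines of the myeloid lineage that bind Ccr1, stood at 1163, 1297 and 1310 and at 1082, 1147 and 1082 TPM, and Pf4, better known from platelets, at 584, 546 and 497 TPM. The neutrophil attractants Cxcl2 and Cxcl1 stood at 489.9, 512 and 522 and at 298, 319 and 289.5 TPM. Of 23 tested chemokines 15 were lower in resting cells and 5 higher (14 and 3 without WT LPS). Ccl6 was higher by 1.84 (SE 0.12; 2.18 without WT LPS), and Cxcl2 was lower at -2.43 (SE 0.17; -2.64 without WT LPS). Pf4 did not pass the test, at -0.01 (SE 0.13, limma adjusted p 0.962; 0.57 without WT LPS). Without KO M0, which is WT M0 against WT LPS, Pf4 was lower, at -0.59 (limma adjusted p 0.0124). Cxcl9, which interferon gamma induces, stood at 0.132, 0.117 and 0.293 TPM.

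Interferon-stimulated genes held 1.02%, 0.943% and 0.985%, led by Ifitm2 at 2787, 2312 and 2395 TPM and Ifitm3 at 2119, 1753 and 1917 TPM, which block virus entry. Of 63 tested members 59 were lower in resting cells and 1 higher, with a median of -3.24, and 58 and 1 without WT LPS. Bst2, tetherin, stood at 459.8, 358 and 367 TPM and differed by -1.43 (SE 0.19; -1.70 without WT LPS). The cholesterol synthesis list was small, at 0.0518%, 0.0596% and 0.0614%, with Msmo1 at 78.9, 115 and 110.5 TPM. Of its 24 tested members 17 were lower in resting cells and 2 higher, but 4 and 3 without WT LPS.

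Alternative activation markers, the genes that interleukin 4 raises, were mixed in level. Mrc1, the mannose receptor, stood at 212, 341 and 323 TPM, Igf1 at 231, 299 and 296 TPM and Msr1 at 253, 278 and 265 TPM, while Retnla and Alox15 were listed at 0 in all 3 and Chil3 stood at 0.186, 0.220 and 0.324 TPM. Of 18 tested members 15 were higher in resting cells and 2 lower, with a median of 1.67, and 15 and 1 without WT LPS. Mrc1 differed by 2.94 (SE 0.17, limma adjusted p 2.64e-07; 2.70 without WT LPS) and Igf1 by 1.48 (SE 0.13; 1.65 without WT LPS). Msr1, a scavenger receptor, went the other way, at -1.51 (SE 0.13; -1.32 without WT LPS).

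Cell cycle genes held 0.173%, 0.179% and 0.179%. The replication clamp Pcna stood at 283, 293 and 273 TPM and the inhibitor Cdkn1a at 249, 216 and 229 TPM. Of 50 tested members 28 were lower in resting cells and 11 higher. The count was 30 lower and 4 higher without WT LPS, which is KO M0 against KO LPS, but 7 lower and 17 higher without KO M0, which is WT M0 against WT LPS. The list summed to 1733, 1787 and 1795 TPM in resting libraries, to 1644 and 1734 TPM in the WT LPS libraries and to 2829 and 2952 TPM in the KO LPS libraries. Whether the genotypes differ in this contrast was not tested. The linker histone H1f2 (listed as Hist1h1c) stood at 568, 435 and 423 TPM and was higher in resting cells by 3.47 (SE 0.15, limma adjusted p 3.84e-08; 3.07 without WT LPS). Of the long noncoding RNAs Neat1, the scaffold of paraspeckles, stood at 2386, 1468 and 1284 TPM and Malat1 at 1263, 733 and 709 TPM, with WT M0 replicate 1 the highest in both. Both were higher in resting cells, by 1.07 (SE 0.20; 1.09 without WT LPS) and 1.03 (SE 0.18; 0.92 without WT LPS).

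Receptors took 4.87%, 5.28% and 5.33% of total TPM. Of 261 listed receptor genes 200 reached 1 TPM in all 3 resting libraries, 85 reached 100 and 57 stayed under 1. Against LPS, 96 of 205 tested were higher in resting cells and 71 lower, or 90 and 56 of 204 without WT LPS. With median-ratio scaling the counts were 86 and 82. These lists also hold adaptors, chaperones and ligands, such as Tyrobp, Unc93b1 and Gas6.

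Csf1r, the receptor of the M-CSF in the medium, stood at 2779, 3248 and 3175 TPM and was the most abundant growth factor or cytokine receptor. Tnfrsf1b, a receptor of tumour necrosis factor, stood at 903, 989 and 988 TPM, and was lower in resting cells, at -1.03 (SE 0.12, limma adjusted p 3.49e-05; -0.96 without WT LPS). The chains of the GM-CSF receptor stood at 432, 388 and 372 TPM for Csf2ra and 353, 394 and 404 TPM for Csf2rb, and Il10rb at 290.2, 336 and 342 TPM. Flt3, Kit and Epor, receptors of progenitors and of the red cell lineage, stayed under 1 TPM in each library.

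Chemokine receptors were few. Cxcr4, which holds cells in the marrow, led with 189.7, 291 and 314 TPM and was higher in resting cells by 3.51 (SE 0.24, limma adjusted p 7.16e-07; 4.85 without WT LPS), or by 2.16 without KO M0. Ccr2, the receptor of inflammatory monocytes, stood at 8.66, 14.8 and 13.8 TPM. Ccr2 differed by 2.75 (SE 0.20, limma adjusted p 1.34e-06; 3.03 without WT LPS). Ccrl2, an atypical chemokine receptor, went the other way with 23.4, 30.9 and 29.2 TPM and a difference of -2.70 (SE 0.16; -3.01 without WT LPS). Cx3cr1 stood at 12.8, 11.7 and 14.7 TPM, Ccr7 at 0.388, 0.115 and 0 TPM, and Cxcr2 was listed at 0 in all 3.

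Among pattern receptors, Tlr2, which senses bacterial lipoproteins, stood at 574, 757 and 815 TPM, Tlr13, which senses bacterial ribosomal RNA, at 112, 159 and 161 TPM, and Cd180 at 114, 149.7 and 131 TPM. Unc93b1, the chaperone of the endosomal Toll-like receptors, stood at 1166, 1378 and 1283 TPM. Ly86, the partner of Cd180, stood at 403, 419.9 and 441 TPM and was higher in resting cells by 1.71 (SE 0.15, limma adjusted p 5.04e-06; 1.59 without WT LPS). Tlr11 and Tlr12, which bind profilin of parasites, were under 1 TPM.

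Fc receptors differed in direction. Fcer1g, their shared signalling chain, stood at 2193, 1650 and 1702 TPM, and Fcgr3, an activating receptor, at 1015, 934 and 932 TPM. Fcgr2b, the inhibitory receptor, stood at 262, 256 and 232 TPM in resting cells and at 1089 to 1562 TPM with LPS, a difference of -2.41 (SE 0.12, limma adjusted p 7.82e-08; -2.67 without WT LPS). Fcgrt, the neonatal receptor that recycles antibody, stood at 218, 248 and 219 TPM and was higher in resting cells by 3.20 (SE 0.15, limma adjusted p 6.11e-08; 2.95 without WT LPS). Fcgr3 was higher too, by 1.34 (SE 0.13; 1.52 without WT LPS), as was Fcrls, by 1.93 (SE 0.14; 1.89 without WT LPS), while the high-affinity receptor Fcgr1 was lower, at -0.69 (SE 0.16; -0.75 without WT LPS). Of the 9 tested, 4 were higher and 5 lower, with 4 and 4 without WT LPS.

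Of the C-type lectins, Clec4d and Clec4e, which sense mycobacterial glycolipids, stood at 947, 951 and 933 and at 760, 749.7 and 870.5 TPM. Both were lower in resting cells, at -1.12 (SE 0.11; -0.67 without WT LPS) and -2.72 (SE 0.13; -2.57 without WT LPS). Clec7a (dectin 1), which binds fungal glucans, stood at 171, 233 and 238 TPM and was higher by 2.12 (SE 0.16; 3.13 without WT LPS), or by 1.11 without KO M0. Scavenger and apoptotic cell receptors were higher in resting cells in 12 of 20 cases and lower in 4, with a median of 0.72, and 12 and 3 with a median of 1.07 without WT LPS. Cd68 stood at 1679, 1682 and 1845 TPM, Stab1 at 658, 743 and 652 TPM and Cd36 at 465, 566 and 545 TPM. Gas6, the ligand that bridges dying cells to Mertk and Axl, stood at 657, 704 and 638 TPM and differed by 3.33 (SE 0.12, limma adjusted p 8.38e-09; 2.46 without WT LPS). Stab1 differed by 1.61 (SE 0.12; 1.28 without WT LPS) and Lrp1, at 258, 324 and 311 TPM, by 1.51 (SE 0.13; 1.59 without WT LPS). Receptors of some tissue macrophages were under 1 TPM, with Timd4 at 0.569, 0.722 and 0.750 TPM and Vsig4 at 0.158, 0 and 0.199 TPM.

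Integrins were led by Itgam at 736, 829.8 and 810.2 TPM and Itgb2 at 523, 573 and 539.7 TPM, which together form complement receptor CR3. Itgal, another partner of Itgb2, stood at 82.0, 73.9 and 80.0 TPM and was lower in resting cells, at -2.37 (SE 0.12, limma adjusted p 7.74e-08; -2.63 without WT LPS). Itgb5 stood at 112, 147 and 141 TPM and was higher by 2.20 (SE 0.15; 2.29 without WT LPS). Tyrobp, the adaptor of Trem receptors, stood at 2898, 1716 and 1771 TPM, with WT M0 replicate 1 well above the other libraries. Trem2, a receptor for lipids, stood at 1304, 1032 and 988 TPM and differed by 2.30 (SE 0.14, limma adjusted p 2.57e-07; 2.35 without WT LPS). Among inhibitory receptors, Lilrb4a (listed as Lilrb4) stood at 1262, 1250 and 1329 TPM, Sirpa, which reads CD47 on other cells, at 1072, 1219 and 1226 TPM and Pirb at 658, 657 and 658 TPM. Lilrb4a was lower in resting cells, at -0.84 (SE 0.12; -0.76 without WT LPS).

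The list of G protein-coupled receptors was led by Gpnmb at 3196, 3163 and 3384 TPM, which is a transmembrane glycoprotein and not such a receptor. Adgre1 (F4/80, listed as Emr1), the marker most used for mouse macrophages, stood at 1111, 1386 and 1406 TPM and did not pass the test, at -0.13 (SE 0.13, limma adjusted p 0.403; -0.19 without WT LPS). The complement receptors C5ar1 and C3ar1 stood at 1029, 1237 and 1253 and at 788, 1112 and 1080 TPM, and both were higher in resting cells, by 0.94 (SE 0.12; 0.95 without WT LPS) and 0.95 (SE 0.16; 1.24 without WT LPS). Gpr84, a receptor of medium-chain fatty acids, stood at 301, 322 and 348 TPM and was lower, at -1.14 (SE 0.11; -1.06 without WT LPS). Of 44 tested members of that list 24 were higher and 14 lower, and 21 and 10 without WT LPS.

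**Figure D3:**
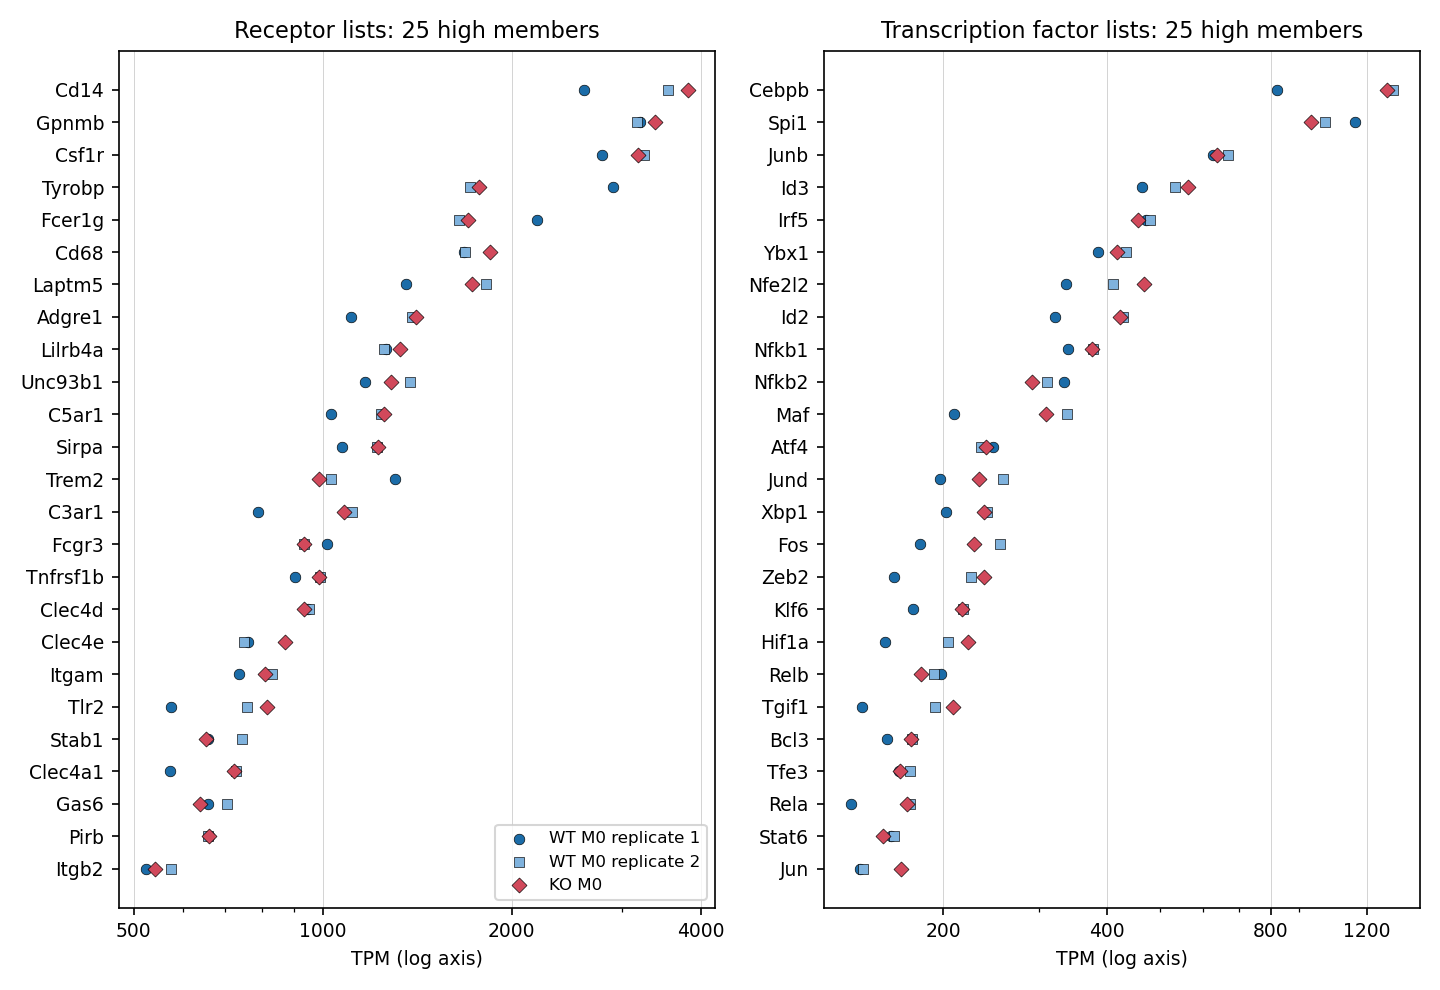
TPM on a log axis of 25 members each among the highest of the receptor lists (left) and of the transcription factor lists (right), leaving out genes not reported here, in the 3 untreated libraries, with the symbols named in the panel. Cd14, Gpnmb and Csf1r lead the receptors and Cebpb and Spi1 the factors, and WT M0 replicate 1 stands apart for Tyrobp (2898 TPM) and Cebpb (823 TPM).

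Transcription factors took 1.32%, 1.53% and 1.49% of total TPM. Of 198 listed, 157 reached 1 TPM in all 3 resting libraries, 33 reached 100 and 34 stayed under 1. Against LPS, 67 of 159 tested were higher in resting cells and 31 lower, or 54 and 25 without WT LPS. Median-ratio scaling gave 57 and 46.

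The lineage factors led. Cebpb stood at 823, 1340 and 1306 TPM, with WT M0 replicate 1 the lowest, and Spi1 (PU.1, listed as Sfpi1) at 1143, 1007 and 947 TPM, with the same library the highest. Neither passed the test against the LPS libraries, with -0.07 (SE 0.21, limma adjusted p 0.799; 0.36 without WT LPS) for Cebpb and -0.13 (SE 0.12, limma adjusted p 0.393; -0.23 without WT LPS) for Spi1. Id3, an inhibitor of E proteins, stood at 464, 534 and 564 TPM and was higher in resting cells by 3.74 (SE 0.20, limma adjusted p 1.28e-07; 3.78 without WT LPS). Zeb2 stood at 162, 225 and 237 TPM, and Ets2 at 129, 156 and 158 TPM with a difference of -1.47 (SE 0.14; -1.72 without WT LPS). Gata1, the factor of red cells and platelets, was listed at 0, and Myb, Gfi1 and Spib were under 1 TPM.

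Maf, which holds macrophages in the mature state, stood at 209.9, 338 and 309 TPM and was lowest in WT M0 replicate 1. Junb stood at 626, 667 and 636 TPM, and Nfe2l2, the factor of the antioxidant response, at 336, 411 and 469 TPM. Irf5 stood at 473, 479.8 and 457 TPM and was higher by 1.37 (SE 0.13, limma adjusted p 1.08e-05; 1.40 without WT LPS), while Irf4, a factor of alternative activation and dendritic cells, stood at 0.654, 0.975 and 0.908 TPM. The NF-kappaB genes were present before LPS, with Nfkb1 at 339, 376 and 375 TPM, Nfkb2 at 333, 310.4 and 291 TPM, Relb at 199, 193 and 182 TPM and Rela at 135, 174 and 172 TPM.

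Nuclear receptors were lower in level. The oxysterol receptors Nr1h2 and Nr1h3 stood at 107, 105 and 98.7 and at 70.0, 55.1 and 67.7 TPM, and the glucocorticoid receptor Nr3c1 at 42.9, 59.7 and 59.3 TPM. Nr4a1, an early response gene, stood at 28.0, 44.3 and 31.5 TPM and differed by 2.45 (SE 0.26, limma adjusted p 1.94e-05; 2.23 without WT LPS), and the retinoic acid receptor Rara by 1.47 (SE 0.17; 1.63 without WT LPS), while Nr3c1 went the other way, at -0.96 (SE 0.15; -0.97 without WT LPS). Of 21 tested members 12 were higher in resting cells and 3 lower, with a median of 0.80, 10 and 2 with a median of 0.58 without WT LPS, and 10 and 6 with centring by length and GC content. Among the other factors Xbp1, of the unfolded protein response, stood at 203, 241 and 238 TPM, Klf6 at 176, 218 and 217 TPM and Hif1a at 157, 204 and 222 TPM. Factors that mark tissue macrophages were at or near 0: Sall1, of microglia, was listed at 0 in all 3, and Gata6, of the peritoneum, stood at 0.0300, 0 and 0 TPM.

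Between genotypes, Tgm2 was the only gene that passed the limma test in resting cells: 1 of 11096 genes (0.00901%), with a log2 difference of -2.95 (SE 0.20, adjusted p 0.000292). The next smallest adjusted p was 0.65, and 154 genes (1.39%) had an unadjusted p under 0.05. KO M0 has no replicate and was assumed to vary like the other groups. The fit of the untreated libraries alone called 35 genes, 14 higher and 21 lower in KO M0, and the fit without a filter on low values called 20. Without WT M0 replicate 2 the test called 3 genes, without WT M0 replicate 1 it called 1, and with a pseudocount of 0.1 it called 2.

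Among the named genes Batf, a factor of the AP-1 family, had the largest gap below both wild-type libraries after Tgm2, at 17.6, 18.8 and 8.36 TPM. Its log2 difference was -1.04 (SE 0.20, limma adjusted p 0.65), and 3 genes that are not named here lay between Tgm2 and Batf. The next named genes were Zmym5 at 20.4, 26.5 and 11.5 TPM, and Aebp1, a protein of the extracellular matrix, at 7.08, 7.13 and 3.84 TPM. Lars2, the leucyl-tRNA synthetase of mitochondria, stood at 89.3, 104 and 53.3 TPM. Acta2 and Sparc, genes of smooth muscle and stromal cells, stood at 7.84, 8.14 and 4.34 and at 9.61, 8.17 and 4.95 TPM, and Ccl24, a chemokine for eosinophils, at 17.4, 15.0 and 9.46 TPM. Ttc32 and Pop5 completed the list. The stromal, osteoblast and endothelial markers, Acta2 and Sparc included, summed to 57.5, 69.6 and 43.8 TPM, with 9 of 16 at 1 TPM in all 3 libraries and Bglap listed at 0. KO M0 lay below both wild-type libraries for 7 of 9 tested, against 24.0% of all tested genes. That count includes Acta2 and Sparc, which were named because of such gaps. Col1a1, the collagen of bone, stood at 13.2, 18.6 and 10.4 TPM. The LPS libraries summed to 36.6 to 76.3 TPM, and the part of such cells in these differences was not tested.

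Above both wild-type libraries, the largest gap among the named genes was that of Gdf3, a member of the TGF-beta family, at 8.09, 8.07 and 15.1 TPM. It lay 0.82 log2 units above the nearer library, and 3 genes that are not named here had larger gaps. Tmem164 stood at 26.5, 29.8 and 51.5 TPM, Pacsin2, a membrane-bending protein, at 44.2, 40.0 and 72.8 TPM, and Ube2c, which tags mitotic cyclins, at 8.84, 5.56 and 15.2 TPM. Ifi44, an interferon-stimulated gene, stood at 4.01, 4.36 and 7.13 TPM, and Hnrnpa1, which binds RNA, at 45.0, 43.1 and 68.6 TPM. Cdk5rap1 and Fbxo25 were also among the 10. Gvin1, at 2.16, 16.1 and 26.5 TPM, and H2-T22, at 4.99, 20.9 and 32.5 TPM, differed as much between the wild-type libraries and belong to families of near-identical copies. Each of these 10 had an adjusted p of 1.0.

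Wide gaps were most frequent in WT M0 replicate 1, not in the knockout library. Among 9072 genes with a mean of at least 5 TPM, KO M0 stood at least 1 log2 unit above both others for 1 gene and below for 4. WT M0 replicate 1 did so for 42 and 12, and WT M0 replicate 2 for 4 and 6. At 0.5 log2 units the counts were 27 and 34 for KO M0, 227 and 455 for WT M0 replicate 1, and 17 and 31 for WT M0 replicate 2.

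By list, KO M0 stood above both wild-type libraries for 30 of 63 interferon-stimulated genes and below for 5, and above for 26 of 50 cell cycle genes and below for 7. Translation factors lay above both in 19 of 33 cases and below in 4, but for 25 of these 33 WT M0 replicate 1 was below both others. The median log2 difference of KO M0 minus WT M0 replicate 2 was 0.0905 for interferon-stimulated genes and 0.146 for cell cycle genes. It was 0.0158 for translation factors and -0.0071 over all genes. Whether these lists differ between genotypes was not tested. Cholesterol synthesis genes lay above both in 13 of 24 cases and below in 3. Oxidative phosphorylation genes lay below both in 33 of 74 cases and above in 6. For 56 of these 74, WT M0 replicate 1 was above both others, and the median of KO M0 minus WT M0 replicate 2 was -0.0088. Alternative activation markers lay below both in 7 of 18 cases and above in 1. Over all tested genes KO M0 lay above both in 36.2% and below both in 24.0%. None of these members passed the test between genotypes apart from Tgm2 itself.

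How near KO M0 lay to each wild-type library was measured by the median absolute difference of log2(TPM + 1) over the 11096 genes. It was 0.10 between WT M0 replicate 2 and KO M0, 0.22 between the wild-type libraries and 0.23 between WT M0 replicate 1 and KO M0. The pairs of LPS replicates lay 0.20 apart in both genotypes. The 90th percentile was 0.31, 0.52 and 0.55, in the order of the first 3 pairs. At least 1 log2 unit separated 55 genes (0.496%) of WT M0 replicate 2 and KO M0, 138 (1.24%) of the wild-type pair and 151 (1.36%) of WT M0 replicate 1 and KO M0. Across genes, which are not independent replicates, Pearson's r on that scale was 0.994, 0.985 and 0.984. The nearest pair of resting libraries thus joined both genotypes.

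**Figure D4:**
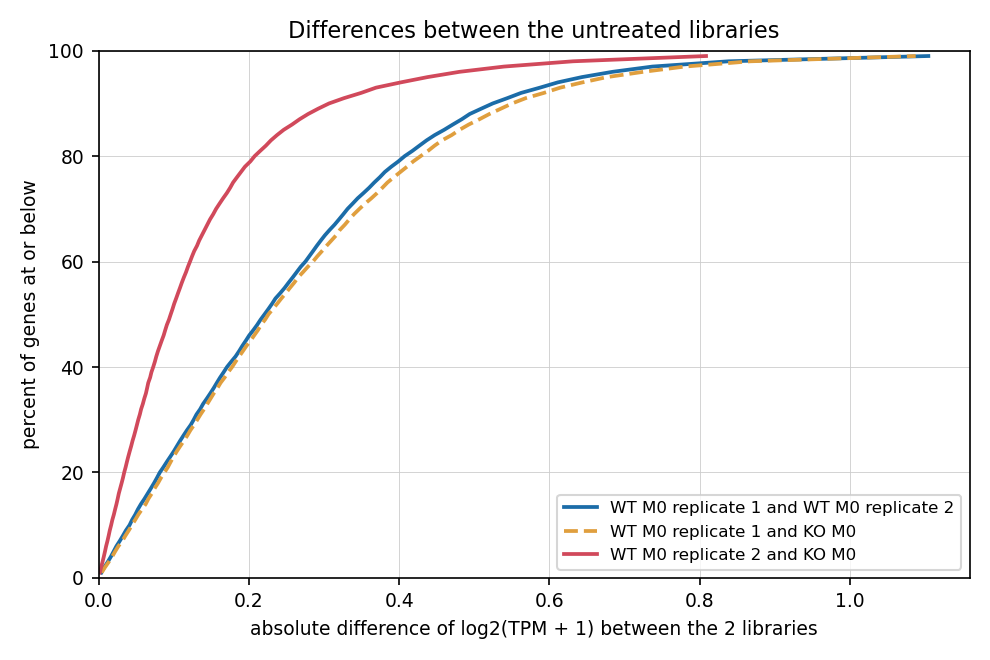
Percent of tested genes (vertical axis) whose absolute difference of log2(TPM + 1) between 2 untreated libraries is at or below the value on the horizontal axis, drawn up to the 99th percentile, with 1 line per pair. The line of WT M0 replicate 2 and KO M0 lies left of the others (median 0.10), and the lines of the pairs with WT M0 replicate 1 nearly coincide (medians 0.22 and 0.23).

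The nearness of WT M0 replicate 2 and KO M0 grew with the level of the gene. In genes of 1 to 10 TPM the median difference of that pair was 0.16, against 0.24 for the wild-type pair and 0.25 for WT M0 replicate 1 and KO M0. In the 140 genes of at least 1000 TPM it was 0.05, against 0.21 and 0.20. KO M0 lay nearer to WT M0 replicate 2 for 72.9% of genes and nearer to WT M0 replicate 1 for 27.0%, or 77.7% and 22.3% among genes of at least 10 TPM. WT M0 replicate 1 was the middle library of the 3 for 15.8% of genes, WT M0 replicate 2 for 44.8% and KO M0 for 39.7%. WT M0 replicate 1 lay below both others for 57.3% of genes and above both for 27.0%.

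The differences of WT M0 replicate 1 followed transcript length and GC content. In the quintile of genes with the shortest transcripts (median 1291 bases) its log2(TPM + 1) was a median of 0.10 above that of WT M0 replicate 2 and of KO M0, and in the quintile with the longest (median 6571 bases) it was -0.29 in both. WT M0 replicate 2 minus KO M0 was 0.00 in the shortest and in the longest quintile. By GC content, WT M0 replicate 1 minus KO M0 ran from -0.31 in the lowest quintile to 0.06 in the highest, and minus WT M0 replicate 2 from -0.28 to 0.00. After centring by both properties the medians were 0.16 for the wild-type pair, 0.17 for WT M0 replicate 1 and KO M0, and 0.09 for WT M0 replicate 2 and KO M0, so the order of the pairs did not change. What gave WT M0 replicate 1 this pattern was not tested.

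**Figure D5:**
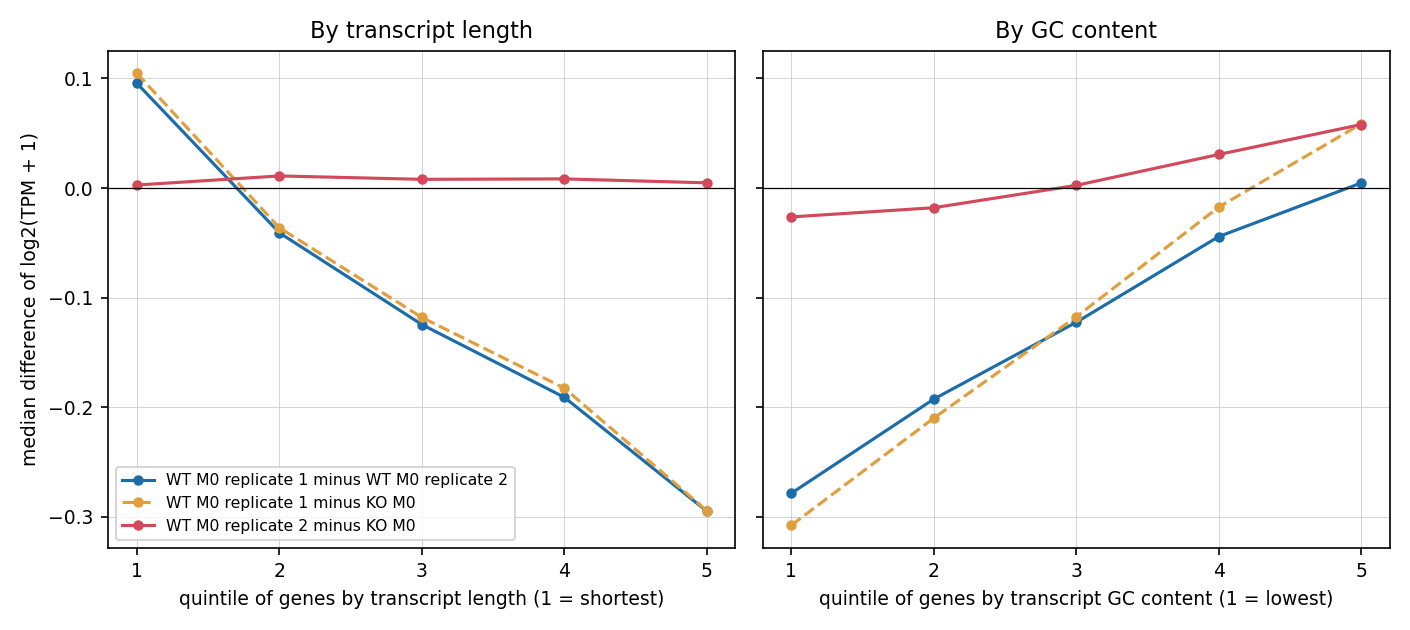
Median difference of log2(TPM + 1) between pairs of untreated libraries (vertical axis) in quintiles of genes by transcript length (left) and by GC content (right), 1 line per pair. Both pairs with WT M0 replicate 1 run from 0.10 in the shortest to -0.29 in the longest transcripts, and WT M0 replicate 2 minus KO M0 stays at 0.01 or less by length.

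The genes with the widest gaps of WT M0 replicate 1 include ribosomal protein genes, which have near-identical copies in the genome, so their values are uncertain. Rps29 stood at 3107, 491 and 736 TPM and Rps28 at 1389, 306 and 402 TPM, both ribosomal proteins, and Ndufa3, of respiratory complex I, at 213, 70.7 and 82.4 TPM. On the low side, Rps27 stood at 28.1, 1039 and 1547 TPM and Ndufs5 at 7.84, 76.0 and 70.3 TPM. Pik3r1, the regulatory subunit of PI3-kinase, stood at 15.5, 60.3 and 44.0 TPM, and Ggta1, which makes the alpha-gal glycan, at 26.5, 109.5 and 97.6 TPM. For WT M0 replicate 2 the gaps included Bgn and Fn1, genes of the extracellular matrix, at 9.84, 17.8 and 9.90 and at 12.2, 20.3 and 12.3 TPM, and Mcfd2, a cargo receptor of the secretory path, at 89.4, 20.6 and 95.3 TPM.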

How the data were processed

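RNA sequencing of 7 mouse macrophage libraries was used. The authors deposited TPM (transcript levels scaled by length and library total) per gene in a table for each library, 23337 genes long and summing to 1000000. Per the submitters' processing notes the genome was mm10. Aligner, quantifier, annotation and strand handling: not given in the sources used here. TPM do not hold read depth, which is unknown, so counting error cannot be stated.

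The fit used limma 3.58.1 (R 4.3.3) on log2(TPM + 1) for genes whose TPM averaged 1 or more across all 7 libraries, as 4 group means with a mean trend and Benjamini-Hochberg adjustment at 0.05. The steps were tested on simulated data. RefSeq GRCm38.p6 names matched 20756 genes directly, 2328 through a synonym and 1 through its number, leaving 252. Lengths and GC content are of GENCODE M21 transcripts.

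Named genes are Tgm2, the 25 most abundant, up to 6 members per list and members under 1 TPM, the genes past the threshold, the 10 widest gaps on each side per library and the 10 highest and lowest against LPS. Those named against LPS also had to show no overlap between resting and LPS libraries. Predicted genes and pseudogenes are not named. The libraries and the 49 gene lists were chosen with earlier results of these data known. Alternatives were other scalings, pseudocounts and filters, libraries left out and a replicate block. Python 3.11.15, pandas 2.3.3 and matplotlib 3.10.9 were used. Some genes of the lists are counted in them but not reported here by name.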

Additional observations from a re-analysis of the deposited data

How the results depend on the processing

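Depth is unknown, so what it limits cannot be given, and KO M0 has no replicate. The order of the distances (WT M0 replicate 2 to KO M0 below the wild-type pair, and that below WT M0 replicate 1 to KO M0) held in all alternatives run. In the order wild-type pair, WT M0 replicate 1 and KO M0, WT M0 replicate 2 and KO M0, the medians were 0.188, 0.205 and 0.0944 with median-ratio scaling, 0.195, 0.212 and 0.0978 with quantile normalization, 0.242, 0.251 and 0.103 with a pseudocount of 0.1, 0.220, 0.222 and 0.0845 with a minimum mean TPM of 5, 0.171, 0.179 and 0.0912 with no filter, and 0.160, 0.171 and 0.0934 with centring by length and GC content.

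For KO M0 against WT M0 the test called 2 genes with a pseudocount of 0.1, 20 with no filter and 35 with the untreated libraries alone, and between 1 and 3 when a library was left out. In that last fit of untreated libraries Gvin1 and H2-T22 passed. Untreated against LPS libraries called 6248 genes, 4125 without both WT LPS libraries (KO M0 against KO LPS alone), and between 4948 and 5886 when a library was left out (without KO M0, WT M0 against WT LPS alone). The replicate number as a block gave 1 gene between genotypes and 6823 against LPS. The KO M0 title carries no number. Deviations of same-numbered libraries correlated at 0.18 (KO LPS and WT LPS), 0.30 (KO LPS and WT M0) and 0.08 (WT LPS and WT M0). These values cannot show whether same-numbered libraries share an animal or a batch, and the labels do not say. The block is therefore not read as a pairing. Of 251 single genes followed, 168 passed the test and 104 passed it under each alternative. Among 3762 values 10 reversed: without both WT LPS libraries Ccr1 (0.95), Hist2h3c2 (0.28), Sqle (0.94) and Xist (0.00), without KO M0 Cd36 (-0.0094), and with centring Cox4i1 (-0.0721), H2-D1 (-0.0061), Nr1h2 (-0.27), Pfn1 (-0.43) and Tpt1 (-0.0597). Over the libraries left out one at a time Cd36 ran from -0.0094 to 0.693. The cause was not tested. No mitochondrially encoded gene matched, so a planned rescaling without such genes had nothing to remove and was not run. List shares of total TPM were recomputed over protein-coding genes and with median-ratio scaling. Of these values, 24 moved by at least the standard deviation between the WT M0 libraries and 50 did not. Centring by length and GC content was chosen after seeing the data.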

Other observations

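Resting macrophages held markers of neighbouring states at intermediate levels, in the order WT M0 replicate 1, WT M0 replicate 2 and KO M0. Of 10 osteoclast markers 6 reached 1 TPM in all 3 libraries, with a summed level of 183, 167 and 197 TPM. Atp6v0d2, a subunit of the proton pump, stood at 61.5, 67.3 and 75.1 TPM, the protease Ctsk at 28.3, 20.1 and 24.7 TPM, and the calcitonin receptor Calcr was listed at 0. Csf3r, the receptor of G-CSF that neutrophils share with macrophages, stood at 93.7, 102.7 and 103.0 TPM, while S100a8 stood at 7.29, 7.33 and 5.01 TPM. F13a1, a transglutaminase of blood clotting that marks a class of monocytes, stood at 81.2, 166.5 and 123.8 TPM. Tgm4, another transglutaminase gene, stood at 5.30, 8.91 and 7.64 TPM and Tgm1 at 0.600, 0.834 and 0.150 TPM. Tgm2 was the most abundant listed member of its family in both wild-type libraries, and F13a1 in KO M0, where Tgm2 stood at 50.7 TPM. Cd4 stood at 11.6, 14.4 and 11.8 TPM with Cd3g and Cd8a listed at 0.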
